A study of Rattus norvegicus with 8 samples.

Results

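The genes described here encode the breakdown of the branched-chain amino acids leucine, isoleucine and valine. They are Bckdha, Bckdhb, Dbt, Bckdk, Bcat2, Acadsb, Ivd, Acad8, Mccc1 and Hibch, a list of 10 genes chosen by name, and every probe set that the platform annotation gives to exactly 1 of them was taken. That rule found at least 1 set for each of the 10 genes, of 14217 named genes on the array, and 12 sets in all, of 31042 that are not manufacturer's controls. Bckdha and Dbt had 2 sets and the other 8 genes had 1 each. The tested livers came from 4 male Goto-Kakizaki rats that ate AIN-93G, a purified rodent diet, with persimmon peel extract added for 12 weeks. The livers they were set against came from 4 male Goto-Kakizaki rats that ate AIN-93G alone for the same 12 weeks. All rats were 18 weeks old at the end and came from 1 inbred strain that becomes diabetic without obesity, so no group without diabetes was measured. The amount of extract in the diet is not given in the sources used here.

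The branched-chain amino acids first lose their amino group to a branched-chain aminotransferase, a step that runs mainly outside the liver. The resulting keto acids are oxidised in mitochondria by the branched-chain keto acid dehydrogenase complex, the committed step of the pathway, for which the liver is a main site. The complex is switched off when its kinase phosphorylates the E1 alpha subunit and switched on again by a phosphatase. After it, each amino acid has its own chain of acyl-CoA enzymes, which end in acetyl-CoA, acetoacetate or propionyl-CoA. Levels of branched-chain amino acids in blood are often raised in type 2 diabetes.

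Of the 10 genes, 9 could be tested, and 1 was lower on the persimmon peel diet, by its only probe set. That was Acadsb, the short/branched-chain acyl-CoA dehydrogenase that oxidises 2-methylbutyryl-CoA from isoleucine. Its set was the dimmest tested set of the 10 genes, with no second set to compare. Its signal was 53.7 ± 18.8 on the persimmon peel diet and 144 ± 24.4 on the control diet (SD, n = 4 each). By the means of its log2 values it was 2.81-fold lower on the persimmon peel diet. In the same arrays the middle to 3′ control ratio of beta-actin, a measure of RNA quality, averaged -1.06 on the persimmon peel and -0.76 on the control diet (log2) without overlap. The same ratio of GAPDH averaged -0.59 on the persimmon peel and -0.58 on the control diet, with overlap. Of the dehydrogenase complex, Bckdha, Bckdhb, Dbt and the kinase gene Bckdk did not pass the test in either direction, and the same held for Ivd, Acad8, Mccc1 and Hibch. A further subunit gene of the complex, Dld, is not among the 10 genes. It was lower (log2 difference -0.45, adjusted p = 0.0162), a call that ended in several other settings, as described further on. Of the 12 probe sets, 10 from 9 genes were bright enough to be tested, and 1 was lower and 0 were higher. Over the whole array 4.53% of 15521 tested sets were lower and 0.425% were higher, shares that changed by over 1.5 times when single arrays were left out, so a count of 1 among 10 does not set the pathway apart. The median log2 difference was 0.009 over the 10 tested sets and -0.007 over all tested sets.

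The upstream sequences of 2 of these genes are shown because they had the lowest and the highest log2 difference among the tested members. Acadsb and Ivd encode related acyl-CoA dehydrogenases that act at the same stage, on the isoleucine and the leucine branch. Acadsb was lower in its only set, and Ivd did not pass the test. Each sequence gives the 250 bases before the RefSeq start of the gene, 5′ to 3′ on the gene's strand, in build GRCr8. Capitals mark a GC box (GGGCGG) or a CCAAT box (CCAAT), searched on both strands.
Acadsb, plus strand, chr1:195618966-195619215: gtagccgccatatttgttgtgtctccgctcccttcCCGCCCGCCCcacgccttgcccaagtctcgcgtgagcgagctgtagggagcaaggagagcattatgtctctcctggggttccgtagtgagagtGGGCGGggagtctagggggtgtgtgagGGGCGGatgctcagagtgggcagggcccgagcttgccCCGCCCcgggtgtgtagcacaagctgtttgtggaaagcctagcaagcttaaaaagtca
Ivd, plus strand, chr3:126305334-126305583: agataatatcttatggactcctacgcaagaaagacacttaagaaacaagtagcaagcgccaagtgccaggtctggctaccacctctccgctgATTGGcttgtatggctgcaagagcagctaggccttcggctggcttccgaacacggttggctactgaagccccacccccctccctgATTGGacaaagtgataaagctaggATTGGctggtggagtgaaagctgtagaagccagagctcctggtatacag

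The Acadsb window held 5 GC boxes, of which the first 2 overlap, and no CCAAT box. The Ivd window held 3 CCAAT boxes, all on the minus strand, and no GC box. GC content was 61.2% for Acadsb and 52% for Ivd. A window was found in the RefSeq table for 9 of the 10 genes, and 8 of those 9 held a GC box and 4 a CCAAT box. Among all 33469 windows of the same length, which include those of noncoding and unnamed genes, 30.5% held a GC box and 34% a CCAAT box. The nuclear receptor motif AGGTCA was in 0 of the 9 windows and in 14.1% of all windows. These matches describe letters in the windows, and no binding was measured.

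The transaminase gene Bcat2 encodes the mitochondrial enzyme that removes the amino group. Its set 1386928_at gave 27.1, 3.47, 17.2 and 10.5 signal units on persimmon peel arrays 1 to 4, against 3.76, 16.4, 14.5 and 5.11 units on control arrays 1 to 4. The values are scattered in both diets and overlap. All 8 lay below 34.4 units, the lowest mean signal tested, so Bcat2 was not tested, and without the filter on dim sets its log2 difference was 0.47 (SE 0.69, adjusted p = 0.82).

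Bckdha and Bckdhb encode the alpha and beta subunits of E1, the decarboxylase of the dehydrogenase complex. The brighter Bckdha set, 1370897_at, gave 1026, 880, 1167 and 978 units on the persimmon peel arrays, against 880, 963, 909 and 921 units on the control arrays. Array 3 of the persimmon peel diet was the highest, and array 2 of that diet lay beside the lowest control array. The log2 difference was 0.14 (SE 0.09, 95% interval -0.07 to 0.34, adjusted p = 0.457). The dimmer Bckdha set, 1380557_at, averaged 124 ± 14.2 units on the persimmon peel and 123 ± 8.69 units on the control diet (SD, n = 4 each), a log2 difference of 0.007 with an interval of -0.26 to 0.27. The log2 distance from the dimmer to the brighter set was 3.03 ± 0.06 on the persimmon peel and 2.91 ± 0.07 on the control diet (SD, n = 4 each). That distance did not pass (exact permutation test, two-sided, p = 0.0571, the only pair of this kind among the members, smallest possible p = 0.0286). It passed after quantile normalization, with a difference of 0.17 (exact p = 0.0286), and without persimmon peel array 2.

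Bckdhb set 1370906_at gave 605, 735, 834 and 601 units on the persimmon peel arrays, against 786, 675, 745 and 632 units on the control arrays. The persimmon peel arrays held both the highest and the lowest values, with a log2 difference of -0.04 (SE 0.12, interval -0.29 to 0.21, adjusted p = 0.883).

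Dbt encodes E2, the transacylase core on which the complex is built. Its bright set 1373201_at gave 526, 552, 572 and 533 units on the persimmon peel arrays, against 542, 666, 564 and 606 units on the control arrays. The lowest 2 values were both on the persimmon peel diet and the highest 2 on the control diet, with overlap between them. The log2 difference was -0.12 (SE 0.09, interval -0.32 to 0.08, adjusted p = 0.51). The second Dbt set, 1392740_at, was too dim to be tested, with 1.89, 1.39, 22.3 and 4.84 units on the persimmon peel and 7.74, 22.6, 13.01 and 18.1 units on the control arrays. Persimmon peel array 3 lay among the control values, and the other 3 arrays of that diet lay below all 4 control arrays. Without the filter its log2 difference was -1.80 (SE 0.78, adjusted p = 0.335).

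Bckdk encodes the kinase that inactivates the complex. Its set 1370842_at gave 476, 473, 511 and 472 units on the persimmon peel arrays, against 496, 539, 452 and 436 units on the control arrays. The persimmon peel values lay inside the control range, and 3 of them were within a few units of each other. The log2 difference was 0.01 (SE 0.10, adjusted p = 0.966), and its 95% interval of -0.20 to 0.22 leaves room for a small difference either way. Kinase activity and phosphorylation were not measured.

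**Figure D1:**
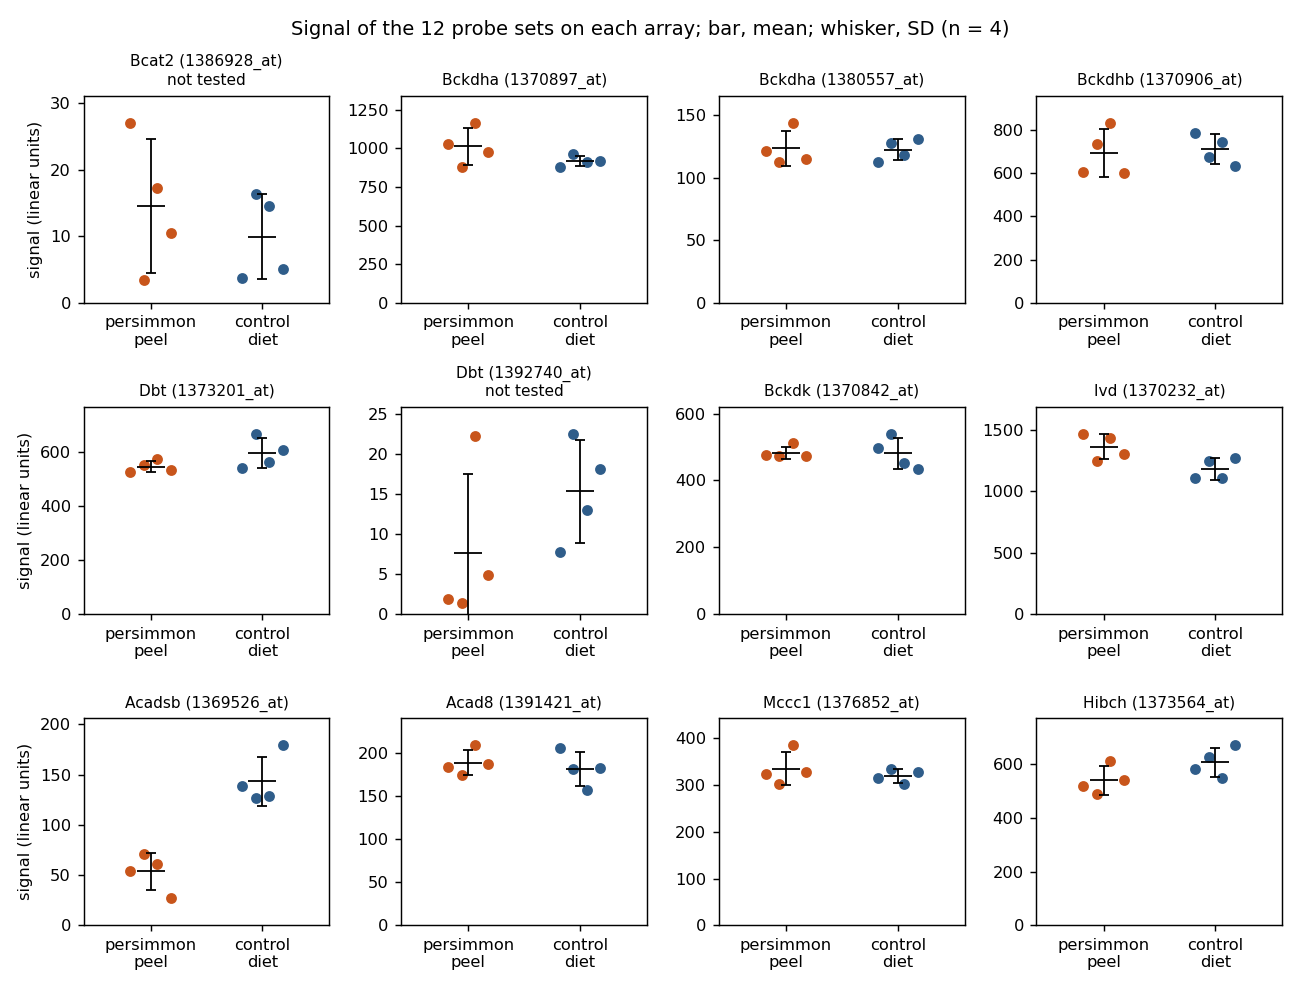
Signal in linear units of the 12 probe sets on each of the 8 arrays, persimmon peel diet on the left and control diet on the right of each panel, with points for arrays 1 to 4 from left to right, a bar for the mean and a whisker for the SD (n = 4, cut off at 0 in 1 panel). Only in the Acadsb panel do the tested arrays of the diets lie apart, with 27.5 to 71.2 units on the persimmon peel and 127 to 179 units on the control diet.

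At the first step after the complex, 3 acyl-CoA dehydrogenases act on the 3 branches. Acadsb serves isoleucine. Its set 1369526_at gave 54.5, 71.2, 61.5 and 27.5 units on persimmon peel arrays 1 to 4, against 139, 127, 129 and 179 units on control arrays 1 to 4. Every persimmon peel array lay below every control array, and over the whole array the diets lay apart in either direction in 12.9% of tested sets. The lowest value was on persimmon peel array 4 and the highest on control array 4. The log2 difference was -1.49 (SE 0.24, 95% interval -2.00 to -0.98, adjusted p = 0.00399), and 12 of the 15521 tested sets, Acadsb included, had a difference this low or lower. Without persimmon peel array 4 it was -1.20 (adjusted p = 0.00372). The mean on the persimmon peel diet, 53.7 units, was not far above the 34.4 units at which testing began. In whole liver, fewer cells of a type and less RNA per cell cannot be told apart.

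Ivd, isovaleryl-CoA dehydrogenase, serves leucine. Its set 1370232_at gave 1465, 1247, 1431 and 1305 units on the persimmon peel arrays, against 1110, 1248, 1103 and 1271 units on the control arrays. Of the persimmon peel arrays, 3 lay above all control arrays and array 2 lay just below the highest 2 of them. The log2 difference of 0.20 did not pass the test (SE 0.09, interval 0.02 to 0.39, adjusted p = 0.204), while after quantile normalization it was 0.26 and passed (adjusted p = 0.0492). Acad8, isobutyryl-CoA dehydrogenase, serves valine. Its set 1391421_at gave 184, 175, 209 and 188 units on the persimmon peel arrays, against 206, 182, 157 and 183 units on the control arrays. The diets overlapped over most of their range, with a log2 difference of 0.06 (SE 0.12, interval -0.19 to 0.31, adjusted p = 0.828).

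Further down, Mccc1 encodes the biotin-carrying subunit of methylcrotonyl-CoA carboxylase on the leucine branch. Its set 1376852_at gave 324, 303, 386 and 328 units on the persimmon peel arrays, against 316, 334, 302 and 327 units on the control arrays. All but persimmon peel array 3 lay close together, and the log2 difference was 0.06 (SE 0.10, interval -0.16 to 0.28, adjusted p = 0.783). Hibch encodes the hydrolase that frees 3-hydroxyisobutyrate on the valine branch. Its set 1373564_at gave 517, 487, 612 and 543 units on the persimmon peel arrays, against 581, 626, 548 and 670 units on the control arrays. Of the persimmon peel arrays, 3 lay below all control arrays and array 3 lay among them, with a log2 difference of -0.17 (SE 0.10, interval -0.39 to 0.05, adjusted p = 0.384). Apart from Acadsb, the 9 tested sets of the members ran from -0.17 to 0.20, with 6 above and 3 below 0.

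The rest of the pathway was read from a list of 24 genes, of which 22 had a set and 20 a tested one. The list is wider than the enzymes of the breakdown. It includes the transcription factor Klf15, the carriers Slc7a5, Slc3a2 and Slc25a44, and Ech1, an enzyme of fatty acid oxidation. By the brightest set of each gene, 1 of the 20 was lower and 0 were higher, against 1.93% lower and 0.469% higher among the brightest sets of all 9174 tested genes. The median log2 difference was -0.07 over these 20 genes and 0.01 over all brightest sets. Of the 20, 15 were below 0, some of them barely, such as Hadha (-0.009) and Hsd17b10 (-0.01). Over all tested sets of the array, brightest or not, 51.4% were below 0. The gene that fell was Dld, the E3 subunit that the branched-chain, pyruvate and 2-oxoglutarate dehydrogenase complexes share. Its signal was 866, 1126, 827 and 973 units on the persimmon peel arrays, against 1260, 1267, 1278 and 1348 units on the control arrays. The diets did not overlap, and the log2 difference was -0.45 (SE 0.10, adjusted p = 0.0162). The call on Dld ended without control array 4 (adjusted p = 0.0619), without persimmon peel array 1 (adjusted p = 0.0631), after quantile normalization (adjusted p = 0.067) and without the intensity trend (adjusted p = 0.0593).

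**Figure D2:**
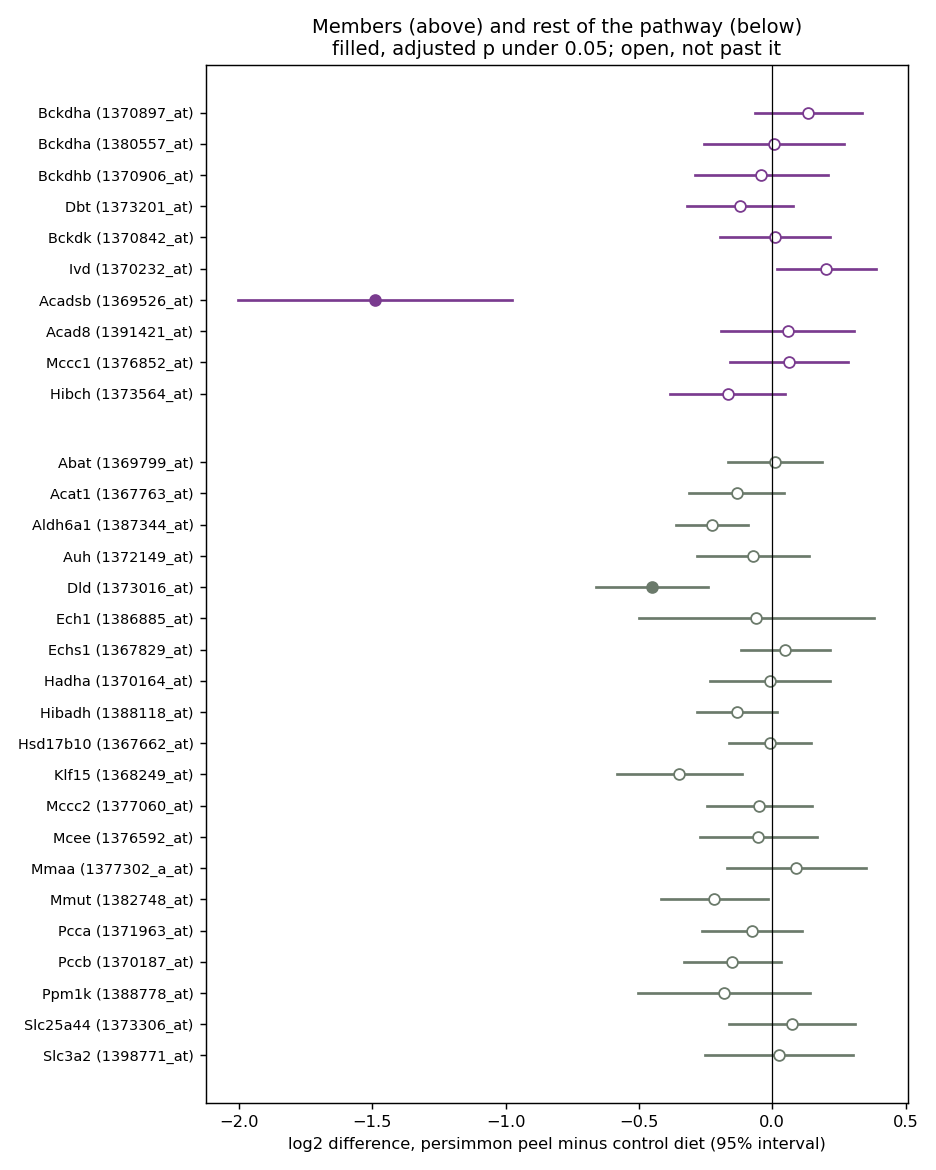
Log2 difference of persimmon peel minus control diet with its 95% interval for the 10 tested member sets (above) and the brightest tested set of the 20 other pathway genes (below). Filled points passed an adjusted p of 0.05, which only Acadsb at -1.49 and Dld at -0.45 did.

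Over all 29 tested sets of the list, 4 were lower and 0 were higher, against 4.53% lower and 0.425% higher among all tested sets. Of these 4, 3 were dimmer sets of genes whose brightest set did not pass. Aldh6a1, methylmalonate semialdehyde dehydrogenase of the valine branch, had 664, 926, 656 and 650 units in its dimmer set 1368814_at on the persimmon peel arrays, against 1147, 1113, 1286 and 1571 units on the control arrays. The log2 difference was -0.83 in that set (SE 0.13, adjusted p = 0.00372) and -0.23 in the brighter set 1387344_at (SE 0.06, adjusted p = 0.0554), with no overlap between the diets in either set. The brighter Aldh6a1 set passed after quantile normalization (adjusted p = 0.0394), in the upper 30% by signal (adjusted p = 0.0471), with array weights (adjusted p = 0.0306) and without persimmon peel array 3 (adjusted p = 0.0497). The dimmer Aldh6a1 set lost its call without persimmon peel arrays 1 and 3 (-0.71, adjusted p = 0.0686) and with the beta-actin covariate described further on (-0.29, adjusted p = 1). Mmut encodes the mutase that turns methylmalonyl-CoA into succinyl-CoA, the last step from propionyl-CoA to the citric acid cycle. Its 3 tested sets differed by -0.22 in the brightest (adjusted p = 0.214), -0.41 in the next (adjusted p = 0.0295) and -0.63 in the dimmest (adjusted p = 0.0128). The call on the middle set ended in 6 of the 8 fits that left out 1 array, and the call on the dimmest ended without control array 4 (adjusted p = 0.0548). Without persimmon peel arrays 1 and 3 neither was called (middle -0.31, adjusted p = 0.203, dimmest -0.41, adjusted p = 0.147). With the beta-actin covariate neither was called (middle -0.20, dimmest 0.09). The call on the middle set also ended after quantile normalization (adjusted p = 0.0702) and without the intensity trend (adjusted p = 0.0721).

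Among the other genes with the smallest p in their brightest set, 0 of 3 passed. Klf15, a transcription factor that promotes amino acid breakdown in liver, differed by -0.35 in its brightest set (SE 0.11, adjusted p = 0.0861) and by -0.42 in the next (SE 0.12, adjusted p = 0.0653). Its brightest set gave 1616, 2025, 1786 and 1860 units on the persimmon peel arrays, against 1999, 2098, 2335 and 2917 units on the control arrays, so that persimmon peel array 2 overlapped the lowest control array. Without persimmon peel array 2 both Klf15 sets passed (adjusted p = 0.0453 and 0.022), and the dimmer one also passed with median centring (adjusted p = 0.03) and with array weights (adjusted p = 0.0461). Pccb, a subunit of propionyl-CoA carboxylase, differed by -0.15 (adjusted p = 0.355), and Hibadh, 3-hydroxyisobutyrate dehydrogenase of the valine branch, by -0.13 (adjusted p = 0.312). Ppm1k, the phosphatase that reactivates the complex and so opposes Bckdk, was singled out after its values were seen. It differed by -0.18 in its brighter tested set (SE 0.15, adjusted p = 0.544) and by -0.70 in its dimmer one (SE 0.20, adjusted p = 0.0602).

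**Figure D3:**
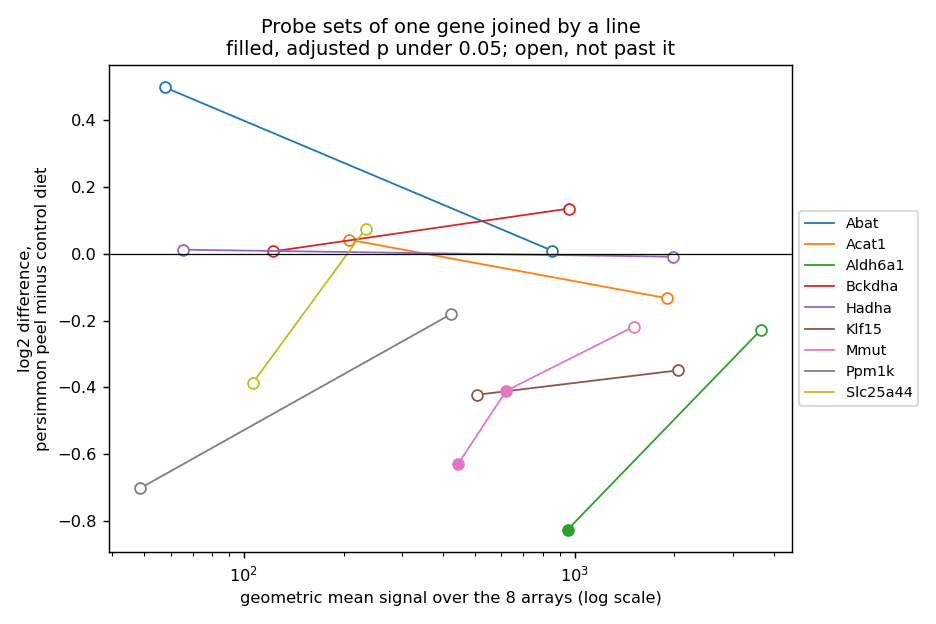
Log2 difference of persimmon peel minus control diet against geometric mean signal (log axis) for each tested set of the pathway genes with several tested sets, with the sets of 1 gene joined by a line and filled points past an adjusted p of 0.05. The filled points are the dimmer sets of Aldh6a1 (-0.83) and Mmut (-0.41 and -0.63), while the brightest sets of those genes lie at -0.23 and -0.22.

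Acadsb had only 1 probe set, so no second set of the gene was there to compare. The tested sets of named genes outside the members whose profiles over the 8 arrays were closest to that of Acadsb belonged to Aplp2, Nedd4 and Lrpprc. Closeness was the root mean square difference between log2 profiles, each centred on its own mean, and it was 0.077 for Aplp2, 0.147 for Nedd4 and 0.168 for Lrpprc. The Aplp2 set 1383096_at gave 43.5, 51.3, 49.1 and 20.4 units on the persimmon peel arrays, against 99.2, 90.8, 92.3 and 122 units on the control arrays. Persimmon peel array 4 was the lowest and control array 4 the highest, an order that choosing the set for its likeness to Acadsb fixes.

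All 3 genes also had brighter tested sets. The Aplp2 set closest to Acadsb differed by -1.37 (adjusted p = 0.0066), and the brightest Aplp2 set by 0.25 (adjusted p = 0.196). The Lrpprc set closest to Acadsb differed by -1.24 (adjusted p = 0.0089), and the brightest Lrpprc set by 0.03 (adjusted p = 0.902). The Nedd4 set closest to Acadsb differed by -1.57 (adjusted p = 0.00355), and the brightest Nedd4 set by -0.09 (adjusted p = 0.753), while another set of Nedd4 was also lower at -1.09. In each of these 3 genes the set that resembled Acadsb was the dimmest one tested. Choosing sets for likeness to Acadsb fixes a difference near that of Acadsb, so their contrast with the brighter sets is no test. How often dim and bright sets of a gene differ in this way over the whole array was not tested.

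Of 4 control ratios for RNA quality, the 2 of beta-actin lay apart between the diets and the 2 of GAPDH overlapped. The middle control set of beta-actin, relative to the 3′ set and on the log2 scale, stood at -1.18, -0.925, -1.09 and -1.06 on persimmon peel arrays 1 to 4, against -0.761, -0.766, -0.746 and -0.783 on control arrays 1 to 4. The diets did not overlap (exact two-sided permutation test, p = 0.0286, adjusted over 4 control ratios 0.0572). For the 5′ to 3′ sets of beta-actin the mean ratio was -1.97 on the persimmon peel and -1.69 on the control diet (exact permutation p = 0.0286, adjusted 0.0572). In that ratio the diets barely lay apart, with -1.823 on persimmon peel array 1 and -1.822 on control array 1. The GAPDH middle to 3′ ratio averaged -0.59 on the persimmon peel and -0.58 on the control diet (exact p = 0.857), and its 5′ to 3′ ratio averaged -0.43 on the persimmon peel and -0.29 on the control diet (exact p = 0.0857). Among the persimmon peel arrays, the lowest beta-actin middle to 3′ ratio was on array 1 and the lowest Acadsb signal on array 4. Array 2 had both the highest beta-actin middle to 3′ ratio (-0.925) and the highest Acadsb signal (71.2 units) of that diet. A fit with that beta-actin ratio as a covariate can hardly part it from diet, since the ratios of the diets do not overlap. In that fit the Acadsb difference was -1.20 (SE 0.60, adjusted p = 1), the Dld difference was 0.02 (adjusted p = 1) and 0 sets of the whole array were called. Without persimmon peel arrays 1 and 3, the arrays with the lowest ratios, Acadsb differed by -1.69 (adjusted p = 0.0451), and Dld by -0.30 (adjusted p = 0.164). The part of RNA quality in the Acadsb result cannot be told apart from diet in these arrays.

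**Figure D4:**
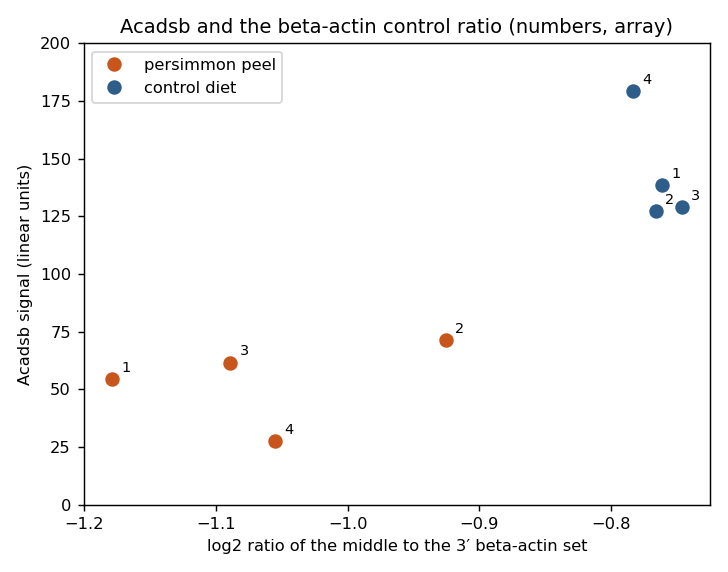
Acadsb signal in linear units against the middle to 3′ ratio (log2) of the beta-actin control sets, 1 point for each of the 8 arrays, numbered by array within its diet. The persimmon peel arrays (27.5 to 71.2 units) lie lower on both axes than the control arrays (127 to 179 units). Within the persimmon peel diet, array 4 has the lowest Acadsb signal and array 1 the lowest ratio. Array 2 of that diet has the highest of both.

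The arrays carried the markers of liver. Of 8 hepatocyte markers 7 had a set, and their summed signal was 62760 to 68780 units on the persimmon peel and 68860 to 72610 units on the control arrays, without overlap and with 0 of 7 called. Markers of macrophages, stellate cells, endothelium, bile duct and pancreas had 0 called in either direction among 15 tested. Bile duct and pancreas had only 1 tested marker each, Epcam and Cela1. The bile duct markers Krt19 and Krt7, the pancreas markers Cpb1, Pnlip and Prss1 and the stellate cell marker Dcn were too dim to be tested. The 3 adipocyte, 4 skeletal muscle and 2 T cell markers were all below the signal tested. The summed macrophage markers ran from 2390 to 3841 units on the persimmon peel and from 2074 to 2913 units on the control arrays. The part of cell makeup in the Acadsb result was not tested.

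**Figure D5:**
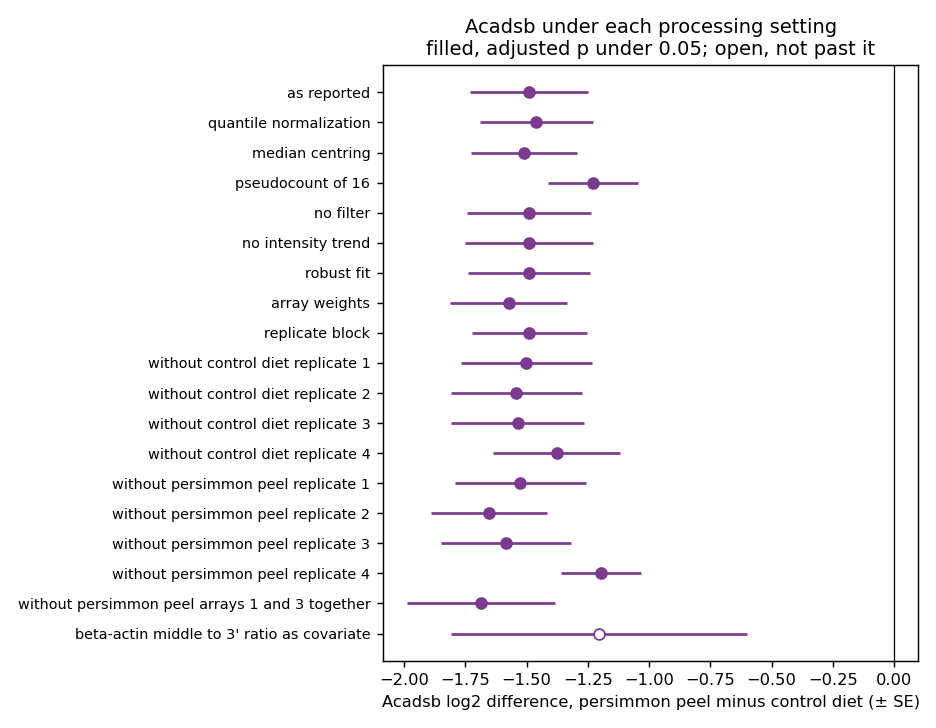
Log2 difference of Acadsb, persimmon peel minus control diet, with its standard error, as reported and under the other processing settings that kept it among the tested sets. Filled points passed an adjusted p of 0.05, and the open point is the fit with the beta-actin ratio as a covariate, at -1.20.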

How the data were processed

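Liver RNA from 8 rats was measured on 1-colour expression arrays, 1 per rat. The deposited values are linear intensity values per probe set. MAS5, the manufacturer's summary algorithm, made them, per the submitters' processing notes, and no version, scaling target or detection call was known here. All 8 columns were used. Gene names came from the platform annotation, updated through a RefSeq table of GRCr8. Values were log2 transformed without a pseudocount or further normalization. Control sets and the dimmest 50% of sets were left out, leaving 15521 with a mean signal of at least 34.4. limma (version 3.58.1, R 4.3.3) compared the diets on all tested sets in 1 two-sided fit, with eBayes and its intensity trend, and p-values were Benjamini-Hochberg adjusted over all tested sets, with a threshold of 0.05. Every adjusted p and SE of a set comes from limma, every difference is persimmon peel minus control, and a set called N-fold lower has the control over the persimmon peel value, from means of log2 values. Single values per array had exact permutation tests. The fit was tested on simulated data. Precision is limited by how few arrays there are.

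The members, the pathway list of 24 genes, the marker lists and the alternatives were chosen with earlier results of these data known. The text names every member, each listed gene with a called set, the 6 listed genes with the smallest p in their brightest set, and the 3 genes closest in profile to each called member set. Listed genes without a set are not analysed here. Same-numbered arrays of the diets were not treated as paired. The correlation of their deviations lay between -0.085 and 0.054, and between -0.136 and 0.132 for arrays with different numbers. Such values cannot show whether arrays shared a batch.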

Additional observations from a re-analysis of the deposited data

Results flagged for a closer look

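In 3 of 44 groups examined, each 1 probe set on 1 diet, 1 array of the persimmon peel diet stood apart from the other 3 by Dixon's criterion, applied to the linear signals of each diet. Chance gives such a gap in about 1 of 20 groups. In Bckdk, array 3 gave 511 units and the next array 476, with a gap of 0.913 of the group's range, although that range was narrow. In the dim Dbt set 1392740_at, array 3 gave 22.3 units and the next 4.84, a gap of 0.835 of the range. In the dimmer Aldh6a1 set, array 2 gave 926 units and the next 664, a gap of 0.948 of the range.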

How the results depend on the processing

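Acadsb was lower in 17 of 18 other settings that tested it, with log2 differences of -1.69 to -1.20, and lost its call only with the beta-actin covariate. The number of member sets called lower was 0 with that covariate and 0 among the upper 30% by signal, where Acadsb was too dim to be tested, and 1 in every fit that left out 1 array. The number called higher was 1 after quantile normalization (Ivd). Pathway genes called lower numbered 2 in the upper 30% and with array weights, 0 without the intensity trend, 0 without persimmon peel arrays 1 and 3, 0 with the covariate, and 0 to 2 with 1 array left out. The Bckdha set distance was 0.17 after quantile normalization and 0.096 to 0.153 with 1 array left out. With the replicate block, Acadsb differed by -1.49 (adjusted p = 0.00264), and the block changed no call among the tested member sets and the named sets of the pathway list. Over the whole array, calls were 703 lower and 66 higher as reported, 597 lower and 271 higher after quantile normalization (68.8% against 91.4% lower), 295 (without control array 4) to 942 (without persimmon peel array 2) lower and 12 (without persimmon peel array 1) to 267 (without persimmon peel array 2) higher with 1 array left out, 75 lower and 1 higher without persimmon peel arrays 1 and 3, and 0 with the covariate.

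Several uncalled member sets changed sign in other settings. As reported, Ivd (0.20) and the brighter Bckdha set (0.14) were the furthest from 0 among them. Bckdhb was 0.007 after quantile normalization. Median centring gave -0.01 for Bckdk and -0.014 for the dimmer Bckdha set, and array weights gave -0.019 and -0.022 for them. Without persimmon peel arrays 1 and 3, Bckdk was -0.02, Mccc1 -0.02 and the dimmer Bckdha set -0.099. With 1 array left out, Bckdk ran from -0.035 to 0.067, Bckdhb from -0.134 to 0.023, the dimmer Bckdha set from -0.07 to 0.047, Acad8 from -0.01 to 0.119 and Mccc1 from -0.007 to 0.109. With the covariate, Ivd was -0.115, Bckdk -0.018, the Bckdha sets -0.185 and -0.208, Bckdhb 0.229, Mccc1 -0.132, and Acad8 -0.103, and among the sets called lower in the rest of the pathway Dld was 0.016 and the dimmest Mmut set 0.09. The cause of these changes was not tested. Dim sets such as Bcat2 and the second Dbt set carry too little signal for a difference to be read.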

Other observations

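Acadsb, Ivd and Acad8 belong to the acyl-CoA dehydrogenase family, and the values of 8 other members of that family were looked up after the Acadsb result had been seen. Acad11 was lower on the persimmon peel diet in its 1 set (log2 difference -0.46, SE 0.11, adjusted p = 0.03), with 1270 ± 190 units on the persimmon peel and 1740 ± 215 units on the control diet (SD, n = 4 each), a call that was lost with no filter on dim sets (adjusted p = 0.0754). Gcdh, glutaryl-CoA dehydrogenase of lysine and tryptophan breakdown, had its middle set lower (-0.50, SE 0.11, adjusted p = 0.0198), while its brightest set differed by -0.12 (adjusted p = 0.456). Acadm, the medium-chain enzyme of fatty acid oxidation, differed by -0.08 (adjusted p = 0.631), Acadl, the long-chain enzyme, by -0.02 (adjusted p = 0.926), Acadvl, the very-long-chain enzyme, by 0.09 (adjusted p = 0.586) and Acads, the short-chain enzyme, by 0.20 (adjusted p = 0.331). Acad9 differed by -0.14 (adjusted p = 0.37), with no overlap between the diets, and Acad10 by 0.26 (adjusted p = 0.388).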
